A study of Mus musculus with 18 samples.

Results

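The S100 genes encode small calcium-binding proteins, and 10 of them were followed: S100a1, S100a3, S100a4, S100a5, S100a6, S100a10, S100a11, S100a13, S100a16 and S100b. They are 10 of the 19259 RefSeq-named genes with a probe on the array, each with exactly 1 probe. The family was chosen by the level of S100a4, which had one of the largest rises from unirradiated stem cells to unirradiated differentiated cells, so that comparison is given as a description without a test. Expression was measured on 18 one-color arrays, 3 for each of 6 groups of mouse cells. ES were unirradiated primary embryonic stem cells of early passage, kept without feeder cells in medium containing LIF, and ED were unirradiated isogenic cells obtained from them by culture without LIF until stem cell markers were lost, an undirected differentiation that can yield several cell types. ESRE and EDRE were the same cells 15 min after 10 Gy IR, and ESRL and EDRL were collected 4 h after 10 Gy. All 6 groups descend from wild-type cells, and nothing said whether replicates were separate cultures, so p-values measure only the spread between these samples, which may be technical.

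Each S100 protein carries a pair of EF-hand loops, and most members open a hydrophobic surface when calcium binds there and then grip a partner protein. Partners include annexins at membranes and non-muscle myosin in the cytoskeleton, and several members are also secreted and act on the receptor encoded by Ager. S100a4 is known as a marker of fibroblasts and of motile mesenchymal cells, S100a6, S100a10 and S100a11 are abundant in many adherent cell types, and S100b is best known from astrocytes.

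The stretches just upstream of a few members are shown for S100a4, on which the choice rests, for S100a11, where most motifs were found, and for the pair of members that start head to head. All are from RefSeq on GRCm38.p6, 5′ to 3′ along the gene, and end at the base before the annotated start. S100a4 lies at chr3:90603520-90603769 on the plus strand and S100a11 at chr3:93520246-93520495 on the plus strand. S100a1 and S100a13 start head to head, so that 104 bases at chr3:90514331-90514434 precede both, shown on the plus strand, which is the strand of S100a13. Capitals mark 3 motifs, each searched on both strands. They are the AP-1 site, spelled TGACTCA on one of the strands, the TATA box, spelled TATAAA, and the GC box, spelled GGGCGG.
S100a4: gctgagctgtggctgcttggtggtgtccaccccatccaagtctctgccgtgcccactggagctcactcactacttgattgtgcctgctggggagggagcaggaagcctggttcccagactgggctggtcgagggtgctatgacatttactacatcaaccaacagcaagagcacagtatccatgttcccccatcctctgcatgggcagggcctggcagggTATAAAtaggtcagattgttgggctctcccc
S100a11: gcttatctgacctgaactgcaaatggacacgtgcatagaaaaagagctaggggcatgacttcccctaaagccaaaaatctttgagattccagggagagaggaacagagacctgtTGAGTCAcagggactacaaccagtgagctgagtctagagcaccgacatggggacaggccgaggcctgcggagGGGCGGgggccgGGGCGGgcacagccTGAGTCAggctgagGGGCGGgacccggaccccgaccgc
S100a1 and S100a13, shared: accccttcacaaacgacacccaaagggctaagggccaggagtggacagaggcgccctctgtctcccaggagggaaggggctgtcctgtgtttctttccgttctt
The S100a4 stretch held 1 TATA box, with its first base 31 bases before the start (position -31). The S100a11 stretch held 2 AP-1 sites, at -136 and -38, and 3 GC boxes, at -64, -52 and -24, none of which overlapped. None of the motifs was found in the shared stretch of S100a1 and S100a13, which was 58.7% G or C. RefSeq promoters were at hand for 9 members (all but S100a10), 13 in all, since some had more than 1. Of these 13 promoters, 1 held an AP-1 site, 2 a TATA box and 3 a GC box. Among all 32851 RefSeq promoters, 250 bases each, 4.5% held the AP-1 site, 12.4% the TATA box and 32.7% the GC box. A match describes the letters of these windows and is not a measured binding site.

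Levels are log2 signals after subtraction of each array's own 75th percentile, so that 0 marks a probe exactly there. Probes were marked by the scanner software as well above background or not, as saturated, and as outlier spots, and outlier spots were left out of means and tests. Of the 180 member spots 19 were outliers, 11 of them for S100a13. Replicates 2 and 3 of EDRE stood apart from the other 16 arrays, with a 75th percentile signal of 875.02 and 1154.5 against 1952.3 to 4268.3, and with 24.4% and 23.8% outlier spots against 3.33% to 11.1%. ESRL replicate 1 shared its scan time with no other array. The pluripotent stem cell markers, 7 of 7 with a probe, had a summed level (the log2 of their summed signals) of 8.83 to 9.43 on the ES, ESRE and ESRL arrays and 2.32 to 3.54 on the ED, EDRE and EDRL arrays, where Zfp42 was not well above background. The 8 mesenchymal markers had a summed level of 5.76 to 6.25 against 8.47 to 8.96, with Thy1 not well above background in the differentiated groups, and the 5 epithelial markers 7.38 to 7.65 against -0.95 to -0.05. Of the myeloid markers 5 of 6 had a probe, with a summed level of -0.40 to 1.11 against -2.52 to -0.15, and Ptprc was not well above background on any array. The 6 glia and neural markers lay at 1.84 to 2.49 against 1.88 to 2.88, and the 4 endothelial markers at 2.10 to 2.65 against -3.73 to -1.38. The part of the cell type mixture in the S100 differences was not tested, and in bulk RNA fewer cells of a type and less RNA per cell cannot be told apart.

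S100a4, which binds the heavy chain of non-muscle myosin, showed the largest difference between cell types of the 10 genes. Its level was -3.19, -3.26 and -3.49 in the 3 ES replicates and 6.72, 6.84 and 7.09 in ED. In ESRE it was -4.23, -4.24 and -4.25, and in ESRL -3.29, -4.47 and -4.54. In EDRE it was 6.90 on replicate 1, with outlier spots of 7.41 and 7.20 on the others, and in EDRL 6.21, 6.81 and 6.94. Every usable array of the differentiated cells was far above every array of the stem cells, and within a cell type the ESRL arrays spanned the gap between ESRE and ES. The ES mean was -3.31 ± 0.16 (SD, n = 3) and the ED mean 6.88 ± 0.19 (SD, n = 3). The difference of 10.20, a 1175-fold higher signal, ranked 7 among 28677 probes ordered by their rise.

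**Figure D1:**
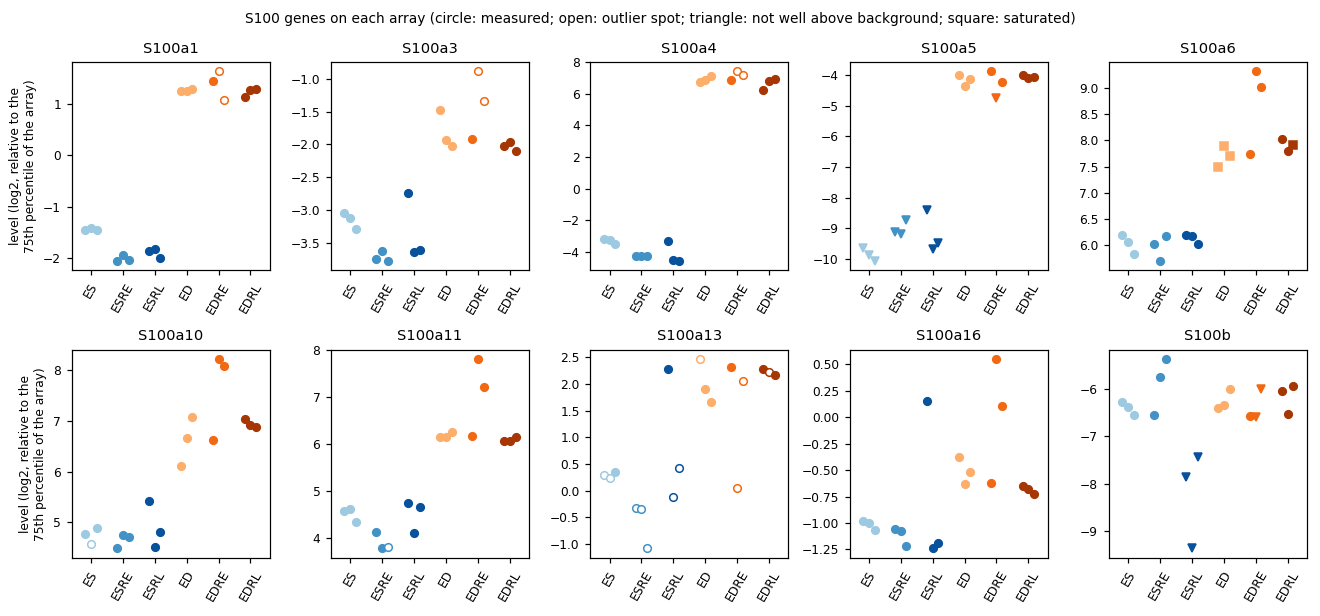
Level of each S100 gene on each of the 18 arrays by group, as the log2 signal minus the 75th percentile of its array (blue for stem cells and orange for differentiated cells, open circles for outlier spots, triangles for spots not well above background, squares for saturated spots). S100a4 lies between -4.54 and -3.19 in stem cells and between 6.21 and 7.09 on usable spots of differentiated cells, whereas S100b overlaps between the cell types except in ESRL.

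S100a6, S100a10 and S100a11, the members with annexin and related partners, were also higher in every differentiated group, by smaller steps. S100a6, which binds calcyclin-binding protein, was at 6.20, 6.06 and 5.84 in ES, 6.02, 5.71 and 6.17 in ESRE, and 6.20, 6.18 and 6.02 in ESRL. It read 7.50, 7.89 and 7.71 in ED, 7.73, 9.31 and 9.02 in EDRE, and 8.02, 7.79 and 7.91 in EDRL. The cell types did not overlap, but the spot was saturated on all 3 ED arrays and on replicate 3 of EDRL, so ED was at least 3.17-fold higher than ES (a bound, since a saturated spot can be brighter than its reading).

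S100a10, which does not need calcium to hold annexin A2 at membranes, had levels of 4.77 and 4.89 in ES (replicate 2 was an outlier spot), 4.49, 4.76 and 4.72 in ESRE, and 5.43, 4.51 and 4.81 in ESRL. It read 6.11, 6.66 and 7.07 in ED, 6.62, 8.22 and 8.09 in EDRE, and 7.03, 6.93 and 6.88 in EDRL. The lowest differentiated array, at 6.11, was above the highest stem cell array, at 5.43.

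S100a11, a partner of annexin A1, was at 4.59, 4.62 and 4.35 in ES, 4.13 and 3.79 in ESRE (replicate 3 was an outlier spot), and 4.75, 4.11 and 4.66 in ESRL. Its level was 6.14, 6.14 and 6.26 in ED, 6.16, 7.80 and 7.20 in EDRE, and 6.06, 6.07 and 6.14 in EDRL. The cell types did not overlap, and for S100a6, S100a10 and S100a11 alike the highest values were those of EDRE replicates 2 and 3, the arrays of low signal. The ED mean exceeded the ES mean by 1.78 for S100a10 and by 1.66 for S100a11.

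S100a1, a regulator of calcium handling in heart and skeletal muscle, had levels of -1.45, -1.41 and -1.45 in ES, -2.05, -1.93 and -2.04 in ESRE, and -1.86, -1.82 and -1.99 in ESRL. It read 1.25, 1.25 and 1.28 in ED, 1.45 on the usable EDRE array, and 1.13, 1.27 and 1.28 in EDRL. The cell types did not overlap, the SD was 0.02 in ES and 0.01 in ED (n = 3 each), and ED was 2.70 higher.

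S100a3, known from the cuticle of hair, was at -3.05, -3.12 and -3.29 in ES, -3.74, -3.62 and -3.77 in ESRE, and -2.74, -3.64 and -3.60 in ESRL. It was at -1.48, -1.93 and -2.03 in ED, -1.92 on the usable EDRE array, and -2.02, -1.96 and -2.10 in EDRL. The cell types did not overlap, with ED 1.34 above ES, and ESRL replicate 1 was the highest stem cell array.

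S100a5, known from olfactory neurons, was not well above background on any of the 9 stem cell arrays, where it read between -10.05 and -8.39. In ED it was at -3.99, -4.34 and -4.13, in EDRE at -3.88, -4.76 and -4.22, the second of these not well above background, and in EDRL at -4.01, -4.08 and -4.07. ED was at least 12.8-fold higher than ES. This bound sets the mean of the brighter group against, on each array of the dimmer group, the higher of the probe's own reading and the lowest signal well above background.

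S100a13, which takes part in the release of Fgf1 and Il1a, could be read on few arrays. Usable spots were 0.35 in ES, none in ESRE, 2.29 in ESRL (replicate 1), 1.91 and 1.66 in ED, 2.32 in EDRE, and 2.29 and 2.18 in EDRL. With outlier spots kept, the mean difference of ED from ES was 1.72, against 1.44 on usable spots.

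S100a16, a widely expressed member, was at -0.98, -1.0 and -1.07 in ES, -1.06, -1.08 and -1.22 in ESRE, and 0.15, -1.24 and -1.19 in ESRL. It was at -0.38, -0.63 and -0.52 in ED, -0.62, 0.55 and 0.11 in EDRE, and -0.65, -0.68 and -0.73 in EDRL. The ED arrays were all above the ES arrays, by 0.50 in the mean, but ESRL replicate 1 stood among the differentiated arrays, as did S100a13 on that array.

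S100b, a secreted ligand of the receptor Ager, was at -6.27, -6.39 and -6.54 in ES and at -6.40, -6.34 and -6.00 in ED. In ESRE it was at -6.54, -5.74 and -5.37, and in ESRL at -7.85, -9.36 and -7.44, where no array was well above background. In EDRE it was at -6.57, -6.59 and -6.01, the last pair not well above background, and in EDRL at -6.05, -6.53 and -5.93. ES and ED overlapped with a mean difference of 0.15, and ESRL lay below all other groups. In the description of ED against ES, 8 of the 10 genes had a mean difference over 1 on the log2 scale, all higher in ED, where 16.1% of all 28677 probes were higher by as much and 29.5% lower, and nothing is read from that count because the choice of the family used it.

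Whether the cell type difference was also present in irradiated cells was tested between EDRE and ESRE and between EDRL and ESRL. These pairs have no array in common, and the rise of S100a4 that chose the family was between unirradiated groups. The members were nonetheless picked with earlier results of these data known. Their counts and medians, set against all probes, are therefore not free of selection. A gene was counted where limma's moderated test gave a Benjamini-Hochberg adjusted p under 0.05 over all probes tested and a log2 difference over 1 in size. At 15 min, 7 of the 8 testable members were higher in EDRE, whereas 18.8% of 24487 probes were counted as higher and 27.7% as lower (46.6% in all). The median difference was 2.85 over these 8 members and -0.17 over all probes. Among the S100 genes that are not members, 5 were testable, with 1 counted as higher in EDRE, 2 as lower and a median of 0.43. S100a4 was higher by 11.13 (standard error 0.42, adjusted p = 1.07e-10), S100a1 by 3.45 (standard error 0.17) and S100a3 by 1.79 (standard error 0.32), each resting on the 1 EDRE array with a usable spot. S100a11 was higher by 3.09 (standard error 0.35), S100a10 by 2.98 (standard error 0.37) and S100a6 by 2.72 (standard error 0.30). S100a16 was higher by 1.14 (standard error 0.32, adjusted p = 0.00689). S100b differed by -0.51 (adjusted p = 0.302). S100a5, at least 7.31-fold higher in EDRE, passed the detection filter in neither group and S100a13 had no usable spot in ESRE, so both were untested.

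The size of these differences depended on the EDRE arrays of low signal. Without EDRE replicates 2 and 3 the differences of S100a6, S100a10 and S100a11 were 1.77, 1.96 and 2.20, all still counted. S100a16 fell to 0.51 (adjusted p = 0.345) and was no longer counted. Without EDRE replicate 1 instead, S100a1, S100a3 and S100a4 had no usable spot, and 4 of the 5 testable members were counted.

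At 4 h, 8 of the 10 members were counted as higher in EDRL than in ESRL, whereas 24.1% of 26395 probes were counted as higher and 24.9% as lower (49% in all). Of these 8, S100a5 and S100b entered the test through EDRL alone, where they were high, and had ESRL readings at background. With the test limited to probes well above background on each of the 6 arrays, 6 of 8 members were counted. The median fitted difference was 1.90 over the 10 members and 0.06 over all probes. Among the S100 genes that are not members, 5 were testable, with 1 counted as higher in EDRL, 3 as lower and a median of -2.23. The member counts and medians at 4 h are thus also those of a selected part of the family. S100a4 was higher by 10.75 (standard error 0.30, adjusted p = 6.35e-12) and S100a1 by 3.12 (standard error 0.12, adjusted p = 1.27e-10). S100a5 was at least 8.13-fold higher (adjusted p = 9.32e-10), and the fitted 5.13 is no measured size. S100a10 was higher by 2.03 (standard error 0.37), S100a6 by 1.78 (standard error 0.30), S100a11 by 1.59 (standard error 0.31) and S100a3 by 1.30 (standard error 0.23). S100b was at least 1.81-fold higher in EDRL (adjusted p = 0.000469), a bound of 0.85 on the log2 scale and so under the limit of 1, and its EDRL mean lay within 0.08 of ED. S100a13 and S100a16 differed by -0.06 and 0.07 (adjusted p = 0.886 and 0.853). Their ESRL means held the high spot of replicate 1, and without it S100a16 differed by 0.53 (adjusted p = 0.0773) and S100a13 could not be tested.

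**Figure D2:**
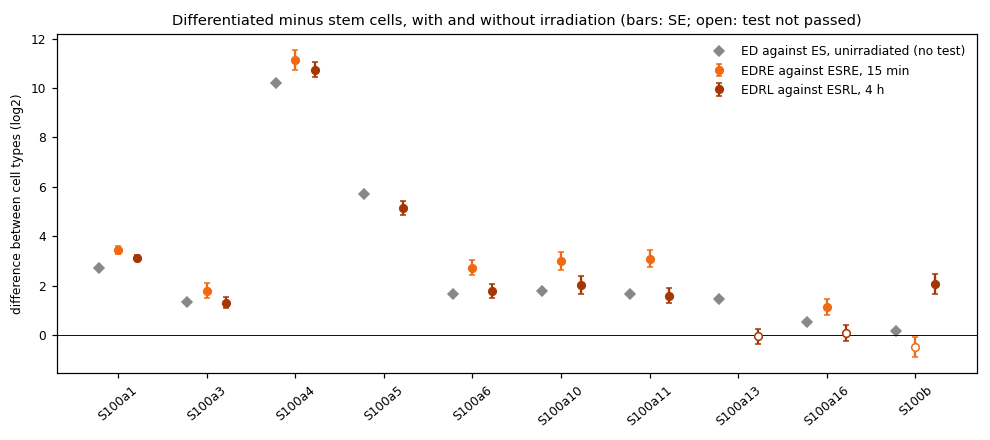
Difference between differentiated and stem cells for each S100 gene on the log2 scale, unirradiated (grey diamonds, no test), 15 min after 10 Gy (orange) and 4 h after 10 Gy (brown), with standard errors and open symbols where the test was not passed. S100a4 lies at 10.20, 11.13 and 10.75, and the 4 h values of S100a5 and S100b are fitted against readings at background.

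No scan time held EDRE with ESRE or EDRL with ESRL, and the one that held both cell types did so through the ED arrays, by which the family was chosen, so no value within a scan is given. With scan time as a random block, S100a4 still differed by 10.80 at 15 min and 10.73 at 4 h, but S100a16 at 15 min (0.64, adjusted p = 0.29), S100a3 at 4 h (1.30, adjusted p = 0.0542) and S100b at 4 h (adjusted p = 0.138) were no longer counted. The methods' t-test counted 6 members at 15 min and 7 at 4 h, without S100a16 (adjusted p = 0.0703) and S100b (adjusted p = 0.0556). S100b at 4 h was also lost with normexp background correction (0.50, adjusted p = 0.404), and S100a16 at 15 min with the 75th percentile over probes well above background on all arrays (0.87) and without EDRE replicate 2 (0.87).

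The change after IR was then tested within each cell type. No scan time held irradiated and unirradiated arrays of the same cell type, so IR and scan cannot be told apart in these tests. With scan time as a random block, far fewer probes were counted. In ES cells they fell from 129 to 0 at 15 min and from 1965 to 0 at 4 h. In ED cells they fell from 1187 to 1 and from 410 to 36. In ES cells at 15 min, limma counted 0 of the 8 testable members, whereas 0.463% of 27875 probes were counted (0.305% higher, 0.158% lower). At an unadjusted p under 0.05 there were 3, S100a1, S100a3 and S100a4, against 2633 of the 27875 probes. The methods' t-test counted 0 members. S100a4 differed by -0.92 (standard error 0.30, adjusted p = 0.262) and S100a1 by -0.57 (standard error 0.12, adjusted p = 0.065). For both the ESRE arrays lay below all ES arrays, but the share of all probes that separate in this way was not counted.

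In ES cells at 4 h, 2 of the 9 testable members were counted, whereas 7.03% of 27966 probes were (0.69% higher, 6.34% lower). Neither of the 2 was measured in replicate in both groups, and with the test limited to probes well above background on each of the 6 arrays, limma counted 0 of 8 members. S100b was lower in ESRL by at least 1.54-fold (adjusted p = 0.0139). It was tested through its ES level alone, its ESRL readings were at background, and this bound of 0.62 on the log2 scale is under the limit of 1, which only the fitted difference of -1.82 passed. The S100b call was lost with scan time as a random block (adjusted p = 1). S100a13 was higher by 1.94 (adjusted p = 0.049) on 1 usable array in each group, that of ESRL being replicate 1, and with outlier spots kept it differed by 0.57 (adjusted p = 0.629).

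S100a4 differed by -0.79 in ESRL (adjusted p = 0.123), with replicate 1 at -3.29 and the others near -4.5. Without that replicate it was lower by 1.19 on the log2 scale (log2 difference -1.19, adjusted p = 0.00918) and was counted. Within the scan time shared with ESRE, S100a4 in ESRL differed from ESRE by -0.27. Including outlier spots, 8 of the 10 members were highest on replicate 1 of the 3 ESRL arrays, the array with a scan time of its own, and the part of the scan in this was not tested.

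**Figure D3:**
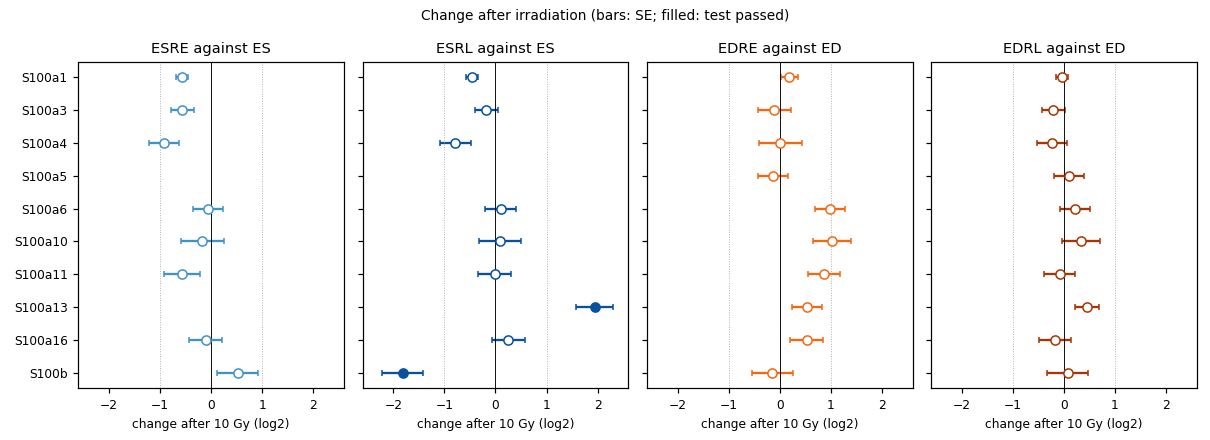
Change of each S100 gene after 10 Gy on the log2 scale with its standard error, for stem cells at 15 min and 4 h (left pair) and differentiated cells at 15 min and 4 h (right pair); filled symbols passed the test and dotted lines mark a log2 change of 1 in size. Only S100a13 (1.94) and S100b (-1.82) in ESRL passed.

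In ED cells at 15 min, limma counted 0 of 10 members, whereas 4.85% of 24490 probes were counted (2.1% higher, 2.74% lower). Of all 24490 probes, 6375 had an unadjusted p under 0.05, and the methods' t-test counted 0 members. Among the members, S100a6, S100a10 and S100a11 had an unadjusted p under 0.05, 3 in all. Their changes were 0.99 (standard error 0.30, adjusted p = 0.0557), 1.03 (standard error 0.37, adjusted p = 0.0958) and 0.87 (standard error 0.31, adjusted p = 0.0927). For S100a6 the ED spots were saturated on all 3 arrays and the EDRE spots were not, so its true change may be smaller. The values moved with EDRE replicates 2 and 3. On replicate 1 alone the changes were 0.04, 0.00 and -0.02, and without replicate 1 they were 1.47, 1.54 and 1.32 and were counted (adjusted p = 4.7e-05, 0.000801 and 0.000487).

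In ED cells at 4 h, limma counted 0 of 10 members, whereas 1.61% of 25412 probes were counted (1.38% higher, 0.236% lower). At an unadjusted p under 0.05 there were 0 members, against 3543 of the 25412 probes, and the methods' t-test counted 0 members. The changes ran from -0.23 for S100a4 to 0.45 for S100a13. S100a4 was thus within 0.23 of its unirradiated mean at both times in the differentiated cells (0.01 at 15 min on 1 usable array, adjusted p = 0.989, and -0.23 with a standard error of 0.30 at 4 h, adjusted p = 0.805).

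Whether the response differed between the cell types was tested as an interaction, which subtracts the change in stem cells from that in differentiated cells. The unirradiated groups that chose the family enter this test. With scan time as a random block, 0 of all probes were counted at either time. At 15 min 0 of 9 members were counted by limma, whereas 1.98% of 28098 probes were (1.16% higher, 0.811% lower). An unadjusted p under 0.05 was found for 4 members and for 5252 of the 28098 probes. S100a11 had the highest value, 1.44 (standard error 0.47, adjusted p = 0.129), and without EDRE replicates 2 and 3 it was 0.54 (adjusted p = 0.508). At 4 h 0 of 10 were counted, whereas 1.07% of 28375 probes were (0.846% higher, 0.226% lower). Here 3 members and 4305 of the 28375 probes had an unadjusted p under 0.05. S100b had the highest value, 1.89 (standard error 0.57, adjusted p = 0.14). The methods' t-test was not made for interactions.

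The neighbourhood of the genes was considered next, since 9 of the 10 members lie on chromosome 3 and S100b lies on chromosome 10. In RefSeq order they run S100a1, S100a13, S100a16, S100a3, S100a4, S100a5, S100a6, S100a11 and S100a10. S100a14 lies between S100a13 and S100a16, and S100a7a, S100a8, S100a9 and S100a7l2 lie between S100a6 and S100a11. S100a3, S100a4, S100a5 and S100a6 follow one another, with S100a2 in RefSeq between the first pair. S100a3, S100a4 and S100a6 were counted as higher in EDRL, by 1.30, 10.75 and 1.78. S100a5 was also counted, but it entered the test through EDRL alone and has only a bound of at least 8.13-fold. S100a14, an epithelial member between S100a13 and S100a16, was lower in EDRL (log2 difference -3.0, adjusted p = 5.4e-08).

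Of the other 7 S100 genes, 5 were testable at 4 h, 1 of which was higher in EDRL and 3 lower. S100a7a, of the skin-expressed S100a7 group, was at least 15.4-fold higher. S100a9, a subunit of the neutrophil protein calprotectin, was at least 3.14-fold lower, and S100a8, the other subunit, was not counted. S100g, the vitamin D-dependent calbindin of the gut, differed by -4.57 (standard error 0.25, adjusted p = 4.79e-10). At 15 min S100a7a was higher by 4.46, and S100a14 and S100g were lower (-3.15 and -5.01). Between the outermost members on chromosome 3 lie 86 other RefSeq genes, 43 with a probe. Of the 28 tested at 4 h, 10 were higher in EDRL and 7 lower, with a median of 0.41. Over all probes these were 24.1%, 24.9% and 0.06. Among the 10 higher, 5 (Lce1a2, Lce1c, Lce1i, Sprr1b and Sprr2f) were also counted as lower in ESRL than in ES. Of the 20 tested at 15 min, 3 were higher in EDRE and 7 lower, with a median of -0.03. Over all probes these were 18.8%, 27.7% and -0.17. Of the 33 with a value in unirradiated cells, 3 were higher in ED by over 1 and 12 lower, without a test.

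**Figure D4:**
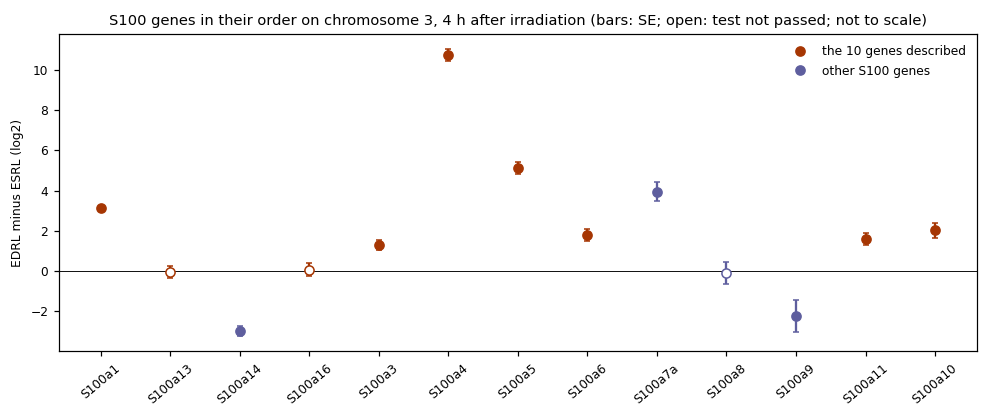
EDRL minus ESRL on the log2 scale with standard errors for the S100 genes on chromosome 3, in RefSeq order and not to scale, brown for the 10 genes and violet for other family genes, with open symbols where the test was not passed. S100a4 at 10.75 and S100a5 at 5.13 stand beside each other, and S100a14 (-3.0) and S100a9 (-2.23) lie below 0. The values of S100a5, S100a7a and S100a9 are fitted against readings at background.

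The proteins that S100 members bind were followed as a list of 22 partners and receptors. At 4 h 20 were testable, 10 of which were higher in EDRL than in ESRL and 2 lower, with a median of 0.72, where 24.1% of all probes were higher and 24.9% lower. At 15 min 21 were testable, 8 of which were higher in EDRE and 5 lower, with a median of -0.15, where 18.8% of all probes were higher and 27.7% lower. Anxa1, the partner of S100a11, was higher by 2.51 at 4 h (standard error 0.16, adjusted p = 2.27e-08), and its group means were 4.54 in ESRL and 7.05 in EDRL. Ahnak, a scaffold that binds S100a10 with annexin A2, was higher by 4.57 (standard error 0.38, adjusted p = 6.38e-06). Anxa2 itself was higher by 3.81 (adjusted p = 0.00624), but on 1 usable array in each group. Myh9, the myosin heavy chain bound by S100a4, was higher by 1.07 (standard error 0.22, adjusted p = 0.000836), with means of 5.39 in ESRL and 6.46 in EDRL. At 15 min Myh9 was not higher in EDRE than in ESRE, with a difference of -0.21 on 1 usable EDRE array.

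Other genes of the list did not all differ in the same direction. Ager, the receptor for S100b and other secreted members, was lower in EDRL (difference -1.10, standard error 0.33, adjusted p = 0.00891). Between EDRE and ESRE Ager differed by -0.24 (limma, adjusted p = 0.551) and was not counted. Tlr4, a receptor also on the list, was counted as higher, with fitted differences of 6.83 at 15 min and 7.37 at 4 h. It was well above background on 0 ESRE arrays and had 1 usable EDRL array, so these are no measured sizes. Fgf1, which is released with S100a13, differed by -3.40 between EDRE and ESRE (adjusted p = 2.71e-09) and by -4.27 between EDRL and ESRL (adjusted p = 2.1e-10). S100a13 itself was untested at 15 min and differed by -0.06 at 4 h. Cacybp, the partner of S100a6, was not counted between irradiated cell types, but was higher in EDRE than in ED by 1.14 (adjusted p = 0.0296). Its EDRE mean was 5.39 ± 0.77 (SD, n = 3), a wide spread beside the 0.02 among the ED arrays. The EDRE group holds the arrays of low signal, replicates 2 and 3. No value without them is given for Cacybp, so this rise may depend on them. Sugt1, a ubiquitin ligase cofactor bound by S100a6, was lower in EDRE than in ESRE (-2.12, adjusted p = 0.021) and higher in EDRL than in ESRL (1.38, adjusted p = 0.0484), on 1 or 2 usable arrays a group. After IR in ED cells at 15 min, 4.85% of all probes were counted. Of the 20 partners 1 other was counted, Kcnk3, a potassium channel brought to the membrane with S100a10 (-1.54, adjusted p = 0.0219). Kcnk3 was well above background on only 1 EDRE array, so this size rests partly on readings at background. In ES cells at 15 min it differed by -1.49 (limma, adjusted p = 0.0777) and was not counted. In the other comparisons of irradiated with unirradiated cells limma counted 0 of 20 partners. Over all probes 0.463% and 7.03% were counted in ES cells at 15 min and 4 h and 1.61% in ED cells at 4 h. In the same order, 6, 7 and 0 partners had an unadjusted p under 0.05. Over all probes these were 2633 of 27875, 6985 of 27966 and 3543 of 25412.

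Other EF-hand genes were followed for comparison, 14 in all. At 4 h 8 were testable, 3 of which were higher in EDRL and 1 lower, a share near the 49% of all probes counted. Capn2, the large calpain subunit, was higher by 2.32 (standard error 0.14), Sri (sorcin) by 2.13 (standard error 0.14) and Calu (calumenin) by 1.13 (standard error 0.18), with adjusted p = 7.95e-09, 2.58e-08 and 0.000278. Calb2 (calretinin) was the one counted as lower, and was not well above background in any differentiated group.

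The genes whose pattern over the arrays was most like that of S100a4 were ranked by the root mean square difference in log2 level after each gene's own mean was subtracted, over the 16 arrays where S100a4 had a usable spot. Of 3487 candidates the closest was Ogn (osteoglycin, of the extracellular matrix) at 0.71, followed by Gpr149 (an orphan receptor) at 1.05, Hoxd12 (a homeobox factor) at 1.27, Il1rl1 (the receptor for interleukin 33) at 1.40 and Lox (lysyl oxidase, which cross-links collagen) at 1.70. Candidates had to be well above background in the differentiated groups, but not in the stem cell groups. They also had to be free of outlier spots on every array, those of low signal included, which S100a4 itself was not. The ranking therefore does not cover every gene detected in differentiated cells. Of the 9 stem cell arrays, Ogn was well above background on 0, Gpr149 on 1, Hoxd12 on 6, Il1rl1 on 8 and Lox on 9, so the distances and order of the first of these rest partly on readings at background. The likeness rests mostly on the step between the cell types, which the choice of S100a4 used.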

How the data were processed

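The 10 members and all gene lists were chosen with earlier results of these data known. Groups, doses and times came from the sample labels. The intensity values deposited by the authors are processed signals of Agilent Feature Extraction (version 9.1 in the submitters' processing notes, 10.7.3.1 in the file headers), already corrected for background, and left unscaled from one array to the next. The other marks deposited per spot (outlier, well above background, saturated) are the scanner software's. A second table deposited by the authors gives log2 values of 30133 probes, which correlated with the log2 signals of each array (r = 1) and was used as an alternative. Its columns had medians of 0.57 to 0.72, and how it was centred is not given in the sources used here.

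Of 39448 spots per array, 1417 control and 200 negative control spots were left out, leaving 37246 probes, 22216 named through RefSeq. Signals were put on the log2 scale with a pseudocount of 0, minus the array's 75th percentile. Outlier spots were then left out. The model in limma 3.58.1 (R 4.3.3) had 1 mean per group and used the 18 arrays together, and a probe was tested if some group compared had it well above background on its 3 arrays. The share of probes well above background ran from 49.5% to 86.1% per array. Precision is limited by the number of arrays. The procedure was tested on simulated data. Besides the members, genes of a list were named as defining partners or where counted in a comparison, but not every counted gene is named. The likeness to S100a4 was to cover 18 arrays, but S100a4 had outlier spots on 2. Alternatives changed the scaling, background correction, filter, outlier spots, block, arrays, test and values. Protein sequences were not used here.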

Additional observations from a re-analysis of the deposited data

Results flagged for a closer look

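For 2 genes that are not among the 10, the change after IR at 15 min differed between the cell types by the interaction test. Plat, the tissue plasminogen activator that S100a10 binds with plasminogen, had a difference of changes of 1.78 (limma, adjusted p = 0.0209), with means of -0.25 in ES, -1.07 in ESRE, 1.79 in ED and 2.75 in EDRE. Without EDRE replicates 2 and 3 it was 1.13 (adjusted p = 0.0794). S100a7l2 had a difference of changes of 3.64 (adjusted p = 0.0232), but none of the ED arrays had it well above background, so its ED level is only a bound, and without EDRE replicates 2 and 3 the difference was 2.56 (adjusted p = 0.125). Its levels on the 3 EDRE arrays were -7.09, -6.03 and -4.91.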

How the results depend on the processing

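Among the changes after IR, the 2 members counted in ESRL against ES became 0 with quantile normalization, with normexp, with probes well above background on all arrays, with scan time as a random block (consensus correlation 0.81), with only the groups compared, with the methods' t-test and with the authors' log2 matrix. They became 1 without the detection filter, with outlier spots kept, with the replicate block and with the 75th percentile taken over probes well above background on all 18 arrays (chosen after seeing the data), and 0 to 2 with an array left out (0 without ES replicate 1 or 2, 1 without most others). In EDRE against ED the count of 0 became 2 with arrays set to their median and with quantile normalization, 3 with normexp and with the authors' matrix, and 0 to 3 with an array left out (3 without EDRE replicate 1). Leaving out an array gave 4 to 7 in EDRE against ESRE (4 without EDRE replicate 1), 8 to 8 in EDRL against ESRL, 0 to 0 in ESRE against ES and EDRL against ED, 0 to 4 in the interaction at 15 min (4 without EDRE replicate 1) and 0 to 1 at 4 h (1, S100b, without ESRL replicate 3). The causes were not tested. Where an arm keeps 1 array, the fit takes its spread from the other groups. No member counted changed its direction in any alternative. Set to the array median, the median over all probes moved from -0.17 to 0.60 in EDRE against ESRE and from 0.06 to 0.54 in EDRL against ESRL, and the probes counted from 4613 higher and 6786 lower to 8999 and 4420, and from 6369 and 6564 to 9524 and 5022. Samples with the same replicate number did not deviate together from their group means (correlations of -0.43 to 0.11), and the main fit did not pair them. Whether they were paired in the experiment is not stated in the sources used here. The replicate block changed the count of members by more than 1.5 times only in ESRL against ES, to 1. Each member has 1 probe, so the alternative of any probe was not run.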
